A study of Mus musculus with 12 samples.

Results

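The genes described here are 29 genes of cholesterol synthesis, intracellular trafficking and SREBP2 control, taken by name from the 55450 genes of the count matrix by a rule that uses no measured value, although earlier results of these data were known when the list was drawn up. They comprise 9 enzymes listed under the early pathway to farnesyl diphosphate and 12 enzymes of the sterol branch. Acat1 and Ggps1 act beside the path to sterols but are counted in that early group and among the enzymes throughout. The other genes are 4 regulators of the SREBP2 system and 4 genes of sterol transport and storage. Uptake is represented only by the proteins that move cholesterol after it has entered the cell, since no lipoprotein receptor is among the 29, and receptors were therefore read in a separate list. Levels were measured by RNA-seq in subcutaneous TC2R tumors, a TRAMP-C2 mouse prostate adenocarcinoma line carrying activated Ras, in male C57/BL6 mice aged 8 to 10 weeks. All mice received a plasmid by sonoporation into muscle on day 4, which was the empty vector pMCS in the pMCS and IL-18 groups, IL-27 with a non-specific C-terminal peptide in the IL-27 and 27→18 groups, or 27pepL, an IL-27 whose C-terminal peptide binds IL-6Rα, in the 27pepL and 27pepL→18 groups. On day 10, recombinant IL-18 was injected into the tumors of the IL-18, 27→18 and 27pepL→18 groups. Tumors were collected on day 26, and each group has 2 libraries, each a pool of 4 to 6 tumors from a single implanted line. Nothing in the labels ties a group's 2 libraries to different animals, so the p-values reflect variation among libraries that could be purely technical.

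Cholesterol is built from acetyl-CoA through mevalonate and isoprenoid diphosphates to squalene, which is oxidized, closed into lanosterol and trimmed to cholesterol in the endoplasmic reticulum. When sterols in that membrane run low, SCAP escorts SREBP2 to the Golgi, where it is cleaved into a transcription factor that raises the genes of the pathway together, and INSIG proteins hold SCAP back when sterols are plentiful. Dividing tumor cells need cholesterol for new membranes, and macrophages and adipocytes in the same tissue store and release it. In bulk tumor RNA, fewer cells of a type and less RNA per cell cannot be told apart.

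Library totals ran from 49844915 to 76620862 counts, and levels are given as CPM, the counts of a gene relative to the library total, scaled with TMM factors, as replicate 1 and replicate 2. The correlation of log2 CPM between the replicates of a group ran from 0.906 in IL-27 to 0.982 in IL-18. IL-27 replicate 1 stood apart in its tissue markers, with a summed level of 8 adipocyte genes of 10737 CPM against 50.1 to 1099 CPM in the other 11 libraries. The 6 epithelial genes Krt8, Krt18, Epcam, Cdh1, Cldn4 and Cldn7 summed to only 16.1 to 113 CPM, so RNA of these markers was low in every library. How much tumor-cell RNA a library held was not tested. Albumin (Alb) was at 0 in all 6 libraries of 27→18, 27pepL and 27pepL→18 and at 133 to 215 CPM in the other 6.

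All 29 genes were expressed in every library and all passed the filter on low counts. None of them changed in any treatment against pMCS at an adjusted p under 0.05 (edgeR), and none had an unadjusted p under 0.05 in any of the 11 comparisons made. The share of all 20417 genes called after adjustment was 0% in IL-18, 0% in IL-27, 0.235% in 27→18, 0.255% in 27pepL and 0.23% in 27pepL→18, and at an unadjusted p under 0.05 it was 2.83%, 4.56%, 2.4%, 3.77% and 3.29%, so a count of 0 among 29 lies near the background in each treatment. DESeq2 also called none after adjustment. The median log2 fold change of the 29 genes was 0.03 in IL-18, 0.03 in IL-27, 0.09 in 27→18, -0.06 in 27pepL and -0.04 in 27pepL→18, beside -0.02, 0.00, 0, -0.03 and -0.03 over all tested genes. With the length trend of each library as a covariate, an alternative chosen after seeing the data, the median in IL-18 was 0.21, beside -0.04 over all tested genes. The median in IL-27 was 0.23 without IL-27 replicate 1 and -0.15 without IL-27 replicate 2. A p above the threshold does not show that levels were equal, and the 95% interval of the log2 fold change lay within 1 in either direction, that is within 2-fold, for 13 of 29 genes in IL-18, 11 in IL-27, 15 in 27→18, 11 in 27pepL and 12 in 27pepL→18.

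**Figure D1:**
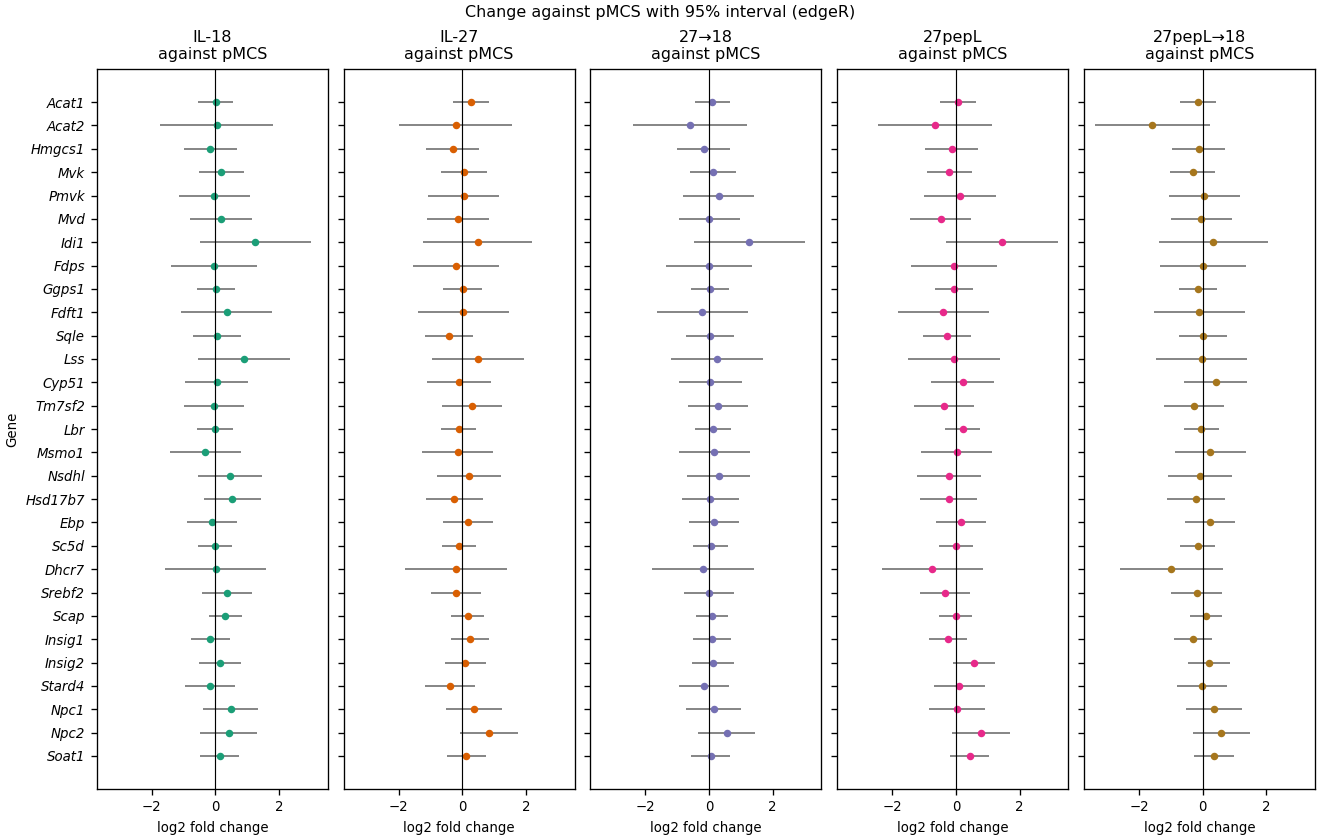
Log2 fold change against pMCS (x axis) of the 29 genes (y axis), with 1 panel per treatment. Points are edgeR estimates and lines their 95% intervals. Every interval includes 0, and the widest belong to Acat2, Idi1, Dhcr7, Lss and Fdft1.

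In the early pathway, farnesyl diphosphate synthase (Fdps), which joins isoprene units into the precursor of squalene, had the highest level per length among the enzymes, with a median of 58.4 CPM per kb of exon. Fdps read 271 and 221 CPM in pMCS, 270.1 and 207 in IL-18, 84.0 and 348 in IL-27, 203 and 293 in 27→18, 329 and 142 in 27pepL and 275 and 221 in 27pepL→18. The lowest and the highest of the 12 values were the 2 libraries of IL-27, and no treated group had both libraries above or both below the pMCS libraries. Fdps overlaps the protein-coding Gm43738 on the same strand, so its counts may include reads of that gene. The log2 fold change against pMCS lay between -0.19 in IL-27 (SE 0.60, 95% interval -1.54 to 1.17, adjusted p = 1) and 0.01 in 27→18 and 27pepL→18. Phosphomevalonate kinase (Pmvk), which phosphorylates phosphomevalonate, read 62.4 and 51.6 CPM in pMCS, 62.9 and 47.7 in IL-18, 36.0 and 81.6 in IL-27, 52.8 and 87.9 in 27→18, 87.4 and 37.2 in 27pepL and 69.2 and 48.9 in 27pepL→18. Its range was nearly as wide within IL-27 and within 27pepL as over all libraries, and no group separated from pMCS.

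Isopentenyl diphosphate isomerase (Idi1) and the cytosolic acetoacetyl-CoA thiolase (Acat2) varied most of all 29 genes and are described for that reason, after their values were seen. Idi1 read 8.99 and 48.4 CPM in pMCS, 78.9 and 57.3 in IL-18, 39.1 and 41.2 in IL-27, 61.4 and 76.7 in 27→18, 111 and 46.1 in 27pepL and 16.2 and 55.9 in 27pepL→18. Both libraries of IL-18 and of 27→18 lay above both pMCS libraries, but pMCS replicate 1 was itself the lowest of the 12 values and replicate 2 of pMCS was near the median of 52.1 CPM. Idi1 had the smallest p of the 29 genes in IL-18 (log2 fold change 1.25, SE 0.78, 95% interval -0.50 to 2.99, unadjusted p of 0.141, adjusted p = 1) and in 27→18 (log2 fold change 1.27, SE 0.78, 95% interval -0.48 to 3.01, unadjusted p of 0.135, adjusted p = 1). Its estimate was largest in 27pepL (log2 fold change 1.45, SE 0.78, 95% interval -0.30 to 3.20, unadjusted p of 0.0941, adjusted p = 1), where only 1 of 2 libraries exceeded both pMCS libraries. Without pMCS replicate 1 the log2 fold change of Idi1 fell to 0.49 in IL-18 and 0.51 in 27→18, and without pMCS replicate 2 it was 2.95 and 2.97. The size of the estimate thus rested on which pMCS library was kept.

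Acat2, which condenses acetyl-CoA at the entry to the pathway, read 67.7 and 76.1 CPM in pMCS, 79.3 and 67.9 in IL-18, 60.2 and 64.4 in IL-27, 43.4 and 50.9 in 27→18, 59.0 and 32.9 in 27pepL and 3.82 and 44.3 in 27pepL→18. It was below both pMCS libraries in both libraries of IL-27, 27→18, 27pepL and 27pepL→18, and 27pepL→18 replicate 1 lay far below every other library. These comparisons share the pMCS libraries and are not independent. Acat2 was at 59.0 CPM or less in 27→18, 27pepL and 27pepL→18, where Alb was at 0, and at 60.2 or more elsewhere. That split follows the groups, so it cannot be told apart from treatment. In 27pepL→18, Acat2 had the smallest p of the 29 genes (log2 fold change -1.58, SE 0.81, 95% interval -3.40 to 0.24, unadjusted p of 0.0821, adjusted p = 1). With 27pepL→18 replicate 2 left out, so that only the low library stood for the group, Acat2 passed adjustment at a log2 fold change of -4.23 (adjusted p = 0.0176), and with replicate 1 left out the estimate was -0.69. Without the filter on low counts, edgeR called Acat2 in 27pepL→18 (adjusted p = 0.0266) and Idi1 in 27pepL (adjusted p = 0.0446), at fold changes close to those with the filter.

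The other early enzymes ranged less widely than Idi1 and Acat2. Acat1, the mitochondrial thiolase of ketone body and isoleucine metabolism, ranged from 90.8 to 143 CPM, and Hmgcs1, which makes HMG-CoA in the cytosol, from 63.8 to 124 CPM. Mevalonate kinase (Mvk) ranged from 15.7 to 30.5 CPM and the decarboxylase Mvd from 18.9 to 49.1 CPM, with the lowest Mvd value in IL-27 replicate 1 and the highest in replicate 2 of the same group. Ggps1, which makes geranylgeranyl diphosphate for protein prenylation and leads away from sterols, stayed between 21.9 and 31.8 CPM.

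**Figure D2:**
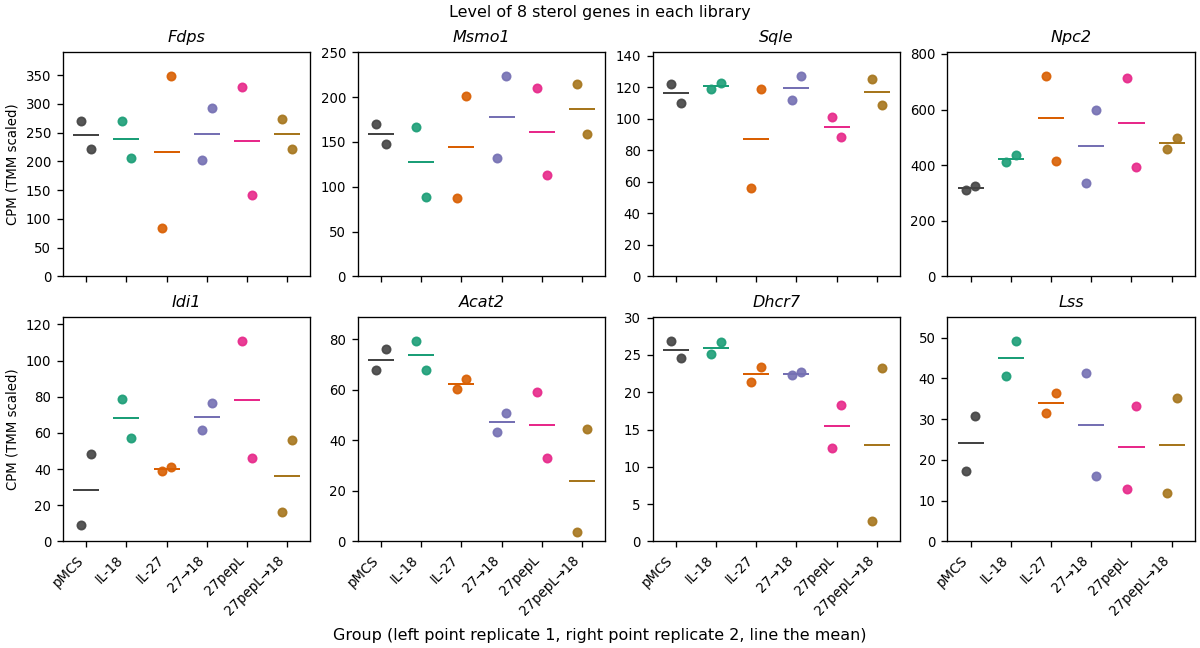
TMM-scaled CPM of 8 genes (y axes, from 0) in the 6 groups (x axis), with replicate 1 as the left point, replicate 2 as the right point and a line at the mean. Single libraries lie far from their partner for Fdps and Sqle in IL-27 and for Acat2 and Dhcr7 in 27pepL→18, while Npc2 was above both pMCS values in all 10 treated libraries.

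In the sterol branch, the highest levels per length belonged to Msmo1 and Cyp51, oxidases that strip methyl groups from lanosterol and its products. Msmo1 read 170.3 and 147 CPM in pMCS, 167 and 88.5 in IL-18, 87.5 and 201 in IL-27, 132 and 223 in 27→18, 209.6 and 113 in 27pepL and 214 and 159 in 27pepL→18. In IL-27, 27→18 and 27pepL, 1 library was above and the other below both pMCS libraries, and no group lay apart from pMCS. Cyp51 read 123 and 97.0 CPM in pMCS, 117 and 108 in IL-18, 70.3 and 134 in IL-27, 95.7 and 130.0 in 27→18, 176 and 79.5 in 27pepL and 177 and 115 in 27pepL→18. Its highest values were 27pepL replicate 1 and 27pepL→18 replicate 1, with partners at 79.5 and 115 CPM, and the largest estimate was in 27pepL→18 (log2 fold change 0.41, SE 0.44, 95% interval -0.58 to 1.41, adjusted p = 1).

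Squalene epoxidase (Sqle), an oxygen-dependent step early in the branch, and the other genes of the branch given per library below were chosen after their values were seen. Sqle read 122 and 110.0 CPM in pMCS, 119 and 123 in IL-18, 56.0 and 119 in IL-27, 112 and 127 in 27→18, 101 and 88.4 in 27pepL and 126 and 109 in 27pepL→18. IL-27 replicate 1 stood below the other 11 libraries, the lowest of which was 27pepL replicate 2, and both 27pepL libraries were below both pMCS libraries. Squalene synthase (Fdft1), the committing step, ranged from 40.7 to 143 CPM and was low in 1 library of each of 4 groups, at 42.3 CPM in IL-27 replicate 1, 47.5 in 27→18 replicate 1, 40.7 in 27pepL replicate 1 and 58.2 in 27pepL→18 replicate 2, with partners from 97.5 to 143 CPM. Fdft1 shares its genomic span with the cathepsin gene Ctsb on the opposite strand, and the sources used here do not say whether the counting used strand.

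Lanosterol synthase (Lss), which closes the sterol rings, read 17.4 and 30.8 CPM in pMCS, 40.6 and 49.1 in IL-18, 31.5 and 36.4 in IL-27, 41.2 and 16.0 in 27→18, 12.9 and 33.2 in 27pepL and 11.9 and 35.3 in 27pepL→18. Both IL-18 libraries and both IL-27 libraries lay above both pMCS libraries, and the other 3 groups each had 1 library below the lower pMCS value. The largest estimate of Lss was in IL-18 (log2 fold change 0.90, SE 0.65, 95% interval -0.55 to 2.35, adjusted p = 1). Nsdhl, a dehydrogenase that works beside Msmo1, read 26.3 and 33.2 CPM in pMCS, 40.1 and 41.5 in IL-18, 33.0 and 35.6 in IL-27, 38.9 and 34.2 in 27→18, 17.9 and 33.5 in 27pepL and 15.6 and 40.4 in 27pepL→18. It was low in the same libraries 27pepL replicate 1 and 27pepL→18 replicate 1 as Lss. Hsd17b7, the reductase of the same demethylation cycle, had a median of 12.7 CPM and was highest in IL-18 replicate 2 at 19.8 CPM.

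Dhcr7, a reductase at the end of the branch whose substrate is also the precursor of vitamin D, read 26.9 and 24.6 CPM in pMCS, 25.1 and 26.7 in IL-18, 21.4 and 23.4 in IL-27, 22.3 and 22.7 in 27→18, 12.5 and 18.3 in 27pepL and 2.75 and 23.2 in 27pepL→18. Both libraries of every group given either IL-27 plasmid lay below both pMCS libraries, and the nearest values were IL-27 replicate 2 and pMCS replicate 2. These comparisons of Dhcr7 share the pMCS libraries and are not independent, and the share of all genes separated in all of them was not counted. The estimates were -0.20 in IL-27, -0.19 in 27→18, -0.74 in 27pepL and -0.98 in 27pepL→18 (SE 0.72, 95% interval -2.59 to 0.62, adjusted p = 1). With 27pepL→18 replicate 2 left out, edgeR called Dhcr7 at a log2 fold change of -3.22 (adjusted p = 0.0316). Of the remaining enzymes, the isomerase Ebp ranged from 41.2 to 78.8 CPM, the desaturase Sc5d from 64.0 to 87.1 CPM and the sterol reductase Lbr, also a protein of the nuclear lamina, from 35.0 to 51.6 CPM. Tm7sf2, the other reductase of the Lbr step, ranged from 3.17 to 7.66 CPM, with the lowest median of the 29 genes at 5.50 CPM, and overlaps Vps51 on the same strand.

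Among the SREBP2 control genes, Srebf2, which encodes SREBP2, read 191 and 222 CPM in pMCS, 253 and 275 in IL-18, 126 and 232 in IL-27, 247 and 168 in 27→18, 139 and 188 in 27pepL and 200.1 and 161 in 27pepL→18. Both IL-18 libraries were above both pMCS libraries and both 27pepL libraries below them, with a log2 fold change of 0.35 (SE 0.35) and -0.34 (SE 0.35). Insig1, an anchor of SCAP in the endoplasmic reticulum and itself an SREBP target, read 65.9 and 57.2 CPM in pMCS, 56.6 and 53.4 in IL-18, 86.0 and 59.2 in IL-27, 58.7 and 72.5 in 27→18, 57.0 and 46.9 in 27pepL and 52.9 and 46.8 in 27pepL→18. Its highest value was IL-27 replicate 1, where Srebf2 was at its lowest, and both libraries of IL-18, 27pepL and 27pepL→18 were below both pMCS libraries. Insig2, the related anchor, ranged from 22.8 to 44.8 CPM with both 27pepL libraries above pMCS (log2 fold change 0.56, SE 0.29, 95% interval -0.09 to 1.22, unadjusted p of 0.0843, adjusted p = 1). Scap ranged only from 41.7 to 59.2 CPM.

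Transport and storage genes held the most abundant of the 29. Npc2, a soluble lysosomal protein that hands cholesterol to NPC1, read 310.3 and 327 CPM in pMCS, 412 and 435 in IL-18, 720.4 and 417 in IL-27, 338 and 598 in 27→18, 713 and 394 in 27pepL and 459.7 and 497 in 27pepL→18. All 10 treated libraries were above both pMCS libraries, but the replicates of IL-27, 27→18 and 27pepL differed by more than the distance of their lower value from pMCS. The estimates were 0.41 in IL-18, 0.84 in IL-27 (SE 0.40, 95% interval -0.07 to 1.74, unadjusted p of 0.0673, adjusted p = 1), 0.55 in 27→18, 0.80 in 27pepL (SE 0.40, 95% interval -0.11 to 1.70, unadjusted p of 0.0787, adjusted p = 1) and 0.59 in 27pepL→18. Since the 5 comparisons share the 2 pMCS libraries, they are not independent. The share of all genes separated from pMCS in all 5 was not counted. Without replicate 1 of the treated group the estimate was 0.41 in IL-27 and 0.31 in 27pepL. Npc2 is abundant in macrophages, and the summed level of 6 macrophage genes was 257 and 479 CPM in pMCS and 358 to 2168 CPM in the treated libraries, and the part of these cells in the level of Npc2 was not tested.

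Soat1, which esterifies cholesterol for storage in lipid droplets, read 118 and 118 CPM in pMCS, 114 and 144 in IL-18, 106 and 150.1 in IL-27, 135 and 109.6 in 27→18, 175 and 142 in 27pepL and 157 and 144 in 27pepL→18. Both libraries of 27pepL and of 27pepL→18 lay above both pMCS libraries (log2 fold change 0.43, SE 0.27, 95% interval -0.19 to 1.04, adjusted p = 1 in 27pepL). Npc1, the lysosomal membrane partner of NPC2, ranged from 22.6 to 55.8 CPM and was above both pMCS libraries in IL-18 and IL-27. Stard4, a carrier of free cholesterol between membranes, ranged from 29.6 to 69.8 CPM with its lowest value in IL-27 replicate 1.

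Separation from pMCS was counted for all genes, since with 2 libraries a side it is common. In IL-18, 10 of 29 genes had both libraries above both pMCS libraries (Mvd, Idi1, Fdft1, Lss, Nsdhl, Hsd17b7, Srebf2, Scap, Npc1 and Npc2), that is 34.5% of them against 19.3% of all tested genes, and 2 had both below against 19.4%. In IL-27, 5 were above against 10.7% of all genes and 5 below against 11.6%, and in 27→18, 3 were above against 12.3% and 2 below against 11.5%. In 27pepL, 3 were above against 13.5% and 7 below (Acat2, Mvd, Ggps1, Sqle, Dhcr7, Srebf2 and Insig1) against 14.6%, which is 24.1% of the 29. In 27pepL→18, 2 were above against 14.1% and 5 below against 15%. No test was made over the list. Every group is set against the same 2 pMCS libraries, and the share of all genes separated in several groups at once was not counted.

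Adding IL-18 or the targeting peptide to a plasmid left the 29 genes without a call as well. For 27pepL against IL-27, the share of all genes called was 0.245% after adjustment and 5.86% at an unadjusted p under 0.05, and the smallest p among the 29 was that of Insig1 (log2 fold change -0.48, SE 0.27, 95% interval -1.09 to 0.12, unadjusted p of 0.106, adjusted p = 0.826). For 27→18 against IL-27 these shares were 0.245% and 3.79%, and the smallest p was that of Sqle at a log2 fold change of 0.45 (unadjusted p of 0.211, adjusted p = 1), which was -0.0045 without IL-27 replicate 1. For 27pepL→18 against 27pepL they were 0% (at an unadjusted p under 0.05, 1.15%), and Idi1 came first with -1.12 (unadjusted p of 0.179, adjusted p = 1). The 3 groups given IL-18 were also compared with the 3 groups not given it, where 0% and 2.1% of all genes were called. There the 95% interval lay within 1 in either direction for 26 of 29 genes, and the smallest adjusted p was 0.9999.

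Whether IL-18 acted differently after a plasmid for IL-27 or 27pepL than after pMCS was tested directly. After IL-27 the shares of all genes called were 0.147% and 3.74%, and after 27pepL 0% and 2.37%, with none of the 29 genes called in either. The difference came closest for Idi1 after 27pepL (log2 fold change -2.37, SE 1.09, 95% interval -4.83 to 0.09, unadjusted p of 0.0575, adjusted p = 0.9999), as Idi1 was higher with IL-18 after pMCS and lower with it after 27pepL. DESeq2 gave this difference an unadjusted p of 0.0306, a replicate block an unadjusted p of 0.0473, and the fit without the filter on low counts an adjusted p of 0.015. It was -4.07 without pMCS replicate 2 and -1.60 without 27pepL replicate 1. Only 4 of 29 genes had an interval within 1 in either direction in each of these differences.

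**Figure D3:**
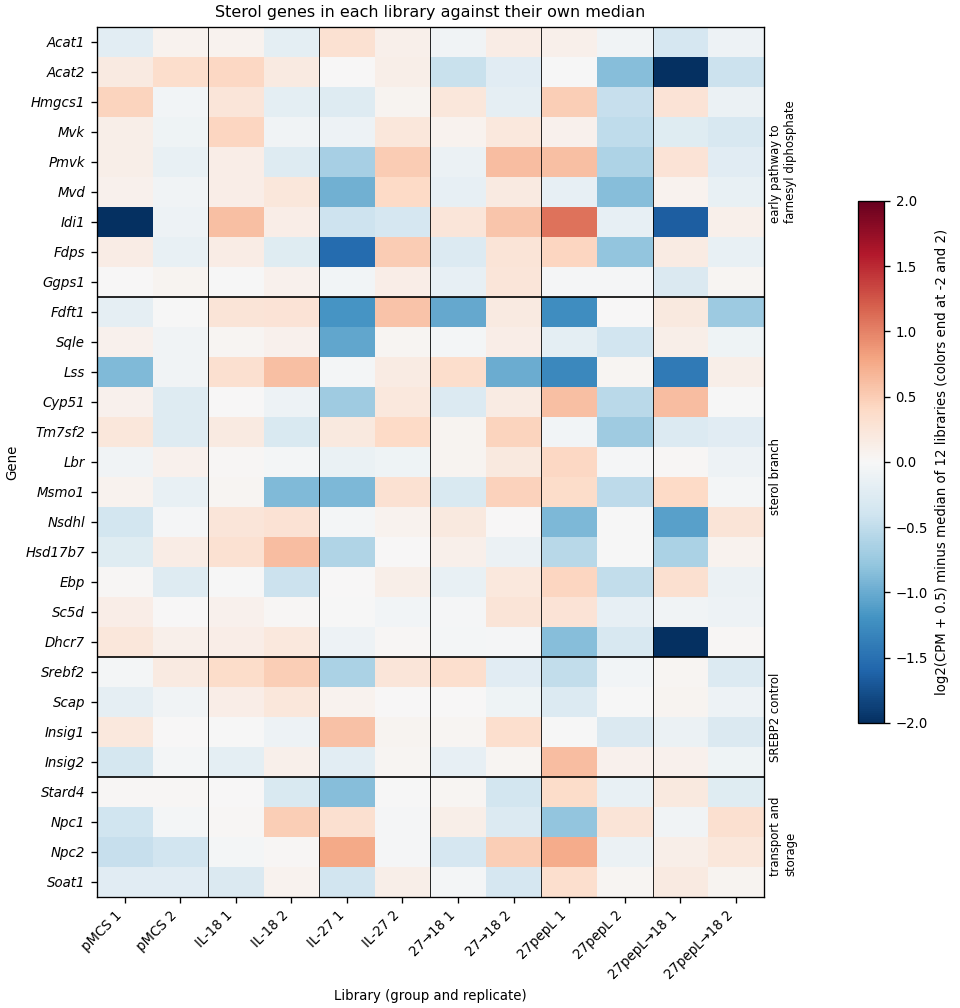
Log2(CPM + 0.5) of the 29 genes (rows, grouped by role) in the 12 libraries (columns), as the difference from the gene's median over the libraries, with blue below and red above it. 27pepL replicate 2 has 24 of 29 genes below their median and IL-27 replicate 1 has 21, while 27pepL→18 replicate 1 has 13 but holds 5 of the genes more than 1 log2 unit down.

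The lowest values gathered in single libraries. IL-27 replicate 1 was the lowest of 12 libraries for 10 of the 29 genes (Fdps, Sqle, Mvd, Msmo1, Cyp51, Pmvk, Stard4, Srebf2, Lbr and Soat1), 34.5% of them against 17.0% of all tested genes, while Npc2, Insig1 and Acat1 were at their highest there. Its partner replicate 2 was lowest for 0. The same library held 10737 CPM of adipocyte genes against 54.6 CPM in its partner, 2168 against 358 CPM of 6 macrophage genes, 920.5 against 116 CPM of 4 leukocyte genes and 10718 against 2922 CPM of 6 fibroblast genes. Its 6 proliferation genes summed to 649 CPM, the lowest of 12 libraries, against 1133 CPM. None of the 29 genes had an unadjusted p under 0.05 in IL-27 against pMCS, with or without the skeletal muscle and adipocyte levels as covariates (edgeR). That count therefore does not bear on tissue, and the part of any cell type in the sterol genes was not tested. With only this library standing for IL-27, its spread assumed to be that of the other groups, 5 genes passed an unadjusted 0.05 against pMCS, or 17.2% beside 13.3% of all genes tested in that fit, namely Fdps (-1.56), Sqle (-1.06), Mvd (-0.99) and Stard4 (-0.89) below and Npc2 (1.17) above, with adjusted p from 0.148 to 0.366.

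In 27pepL→18 replicate 1, 7 genes were at their lowest (Acat1, Acat2, Ggps1, Lss, Nsdhl, Hsd17b7 and Dhcr7), 24.1% against 10.4% of all tested genes, and 5 of 29 lay more than 1 log2 unit below their own median, or 17.2%, against 5.65% of all tested genes. Cyp51 was at its highest in the same library. In 27pepL replicate 2, 24 of 29 genes lay below their median, 82.8% against 49.3% of all tested genes, and 0 lay more than 1 log2 unit down. The 21 enzymes had a median deviation of -0.38 on the log2 scale in this library, against 0 over all tested genes, and its correlation over all tested genes between exonic length and deviation, 0.347, was the most positive of the 12.

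Over the 12 libraries, 11 genes stayed within 2-fold, 13 ranged from 2- to 4-fold and 5 exceeded 4-fold, with highest to lowest ratios of 20.7 for Acat2, 12.3 for Idi1, 9.77 for Dhcr7, 4.15 for Fdps and 4.14 for Lss. The median range was 1.21 log2 units against 1.32 over all tested genes. The largest gap between replicates was 0.93 log2 units in the median gene against 0.98, and the range of the group means 0.54 against 0.66. Differences between groups took 0.437 of the variance of log2 CPM in the median gene against 0.386 over all. This share is not corrected for the number of groups. With 6 groups over 12 libraries it is large even where groups do not differ, so it does not measure an effect of treatment.

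The enzymes varied in more than 1 pattern. Over the 12 libraries, the median Spearman correlation of the 210 pairs among 21 enzymes was 0.259, with 18 pairs at 0.7 or more and 5 at -0.5 or less. Pmvk, Fdps, Cyp51, Msmo1 and Ebp varied together, with 0.937 for Pmvk and Msmo1 and 0.930 for Fdps and Cyp51. Another set held Lss, Nsdhl and Hsd17b7, with 0.874 for Lss and Nsdhl and 0.839 for Nsdhl and Hsd17b7, and its 15 pairs with the first set ranged from -0.231 to -0.692 with a median of -0.392, 5 of them at -0.5 or less. Acat2 and Dhcr7 correlated at 0.797. These values describe libraries that share groups, tissue mixture and depth, and carry no p.

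The first set also followed a property of the libraries. For each library, the correlation over all tested genes between exonic length and the deviation of log2 CPM ran from -0.400 in 27→18 replicate 2 to 0.347 in 27pepL replicate 2, so that some libraries held relatively more counts from short genes and others from long ones. Over the 12 libraries the Spearman correlation with this length trend was -0.895 for Pmvk, -0.881 for Ebp, -0.874 for Fdps, -0.853 for Msmo1 and -0.769 for Cyp51, and it was 0.860 for Npc1, 0.601 for Lss and 0.469 for Nsdhl. The lengths of the sets overlapped, from 1713 (Pmvk) to 6144 (Msmo1) bases of exon in the first and from 2853 (Nsdhl) to 10787 (Lss) in the other. Pmvk and Ebp (2310), with the most negative of these correlations, are short, and Npc1 (11317) and Lss are long. Lengths here join all annotated exons of a gene, and the part of length in these levels was not tested. The share of all tested genes that follow the trend as closely is not given here. With the trend as a covariate in the model, a choice made after the data were seen, no gene passed adjustment, Npc2 reached an unadjusted p of 0.0423 in IL-27 and Lss one of 0.0324 in 27pepL against IL-27.

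**Figure D4:**
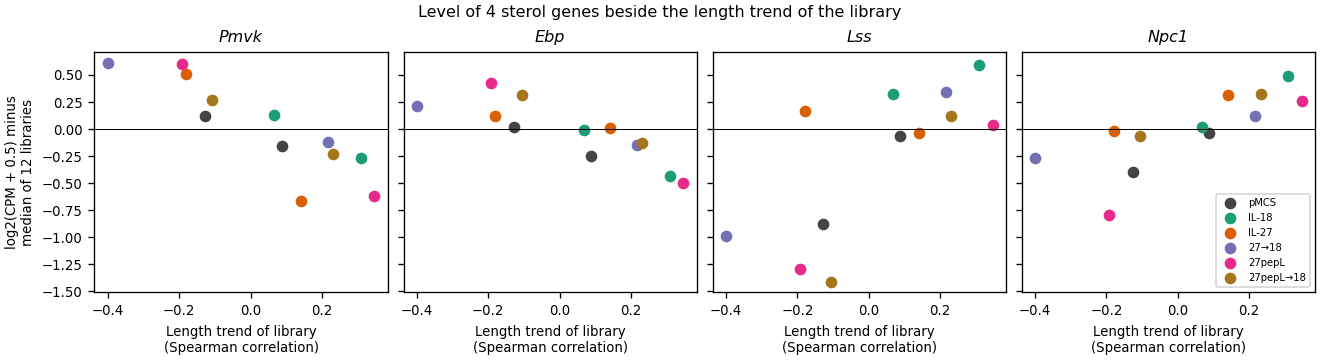
Log2(CPM + 0.5) of Pmvk, Ebp, Lss and Npc1 minus the gene's median over 12 libraries (y axis) against the library's Spearman correlation between exonic length and deviation (x axis), with 1 point per library colored by group. Pmvk and Ebp fall and Npc1 rises along the x axis, and the 2 libraries of 27→18 and of 27pepL sit far apart along it.

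Because SREBP2 acts on these genes through their promoters, the windows from 250 bases before to 50 after the transcript start were searched in RefSeq sequence of GRCm38.p6, and 23 of the 29 genes matched a window. Those without one were Acat1, Fdps, Fdft1, Sqle, Stard4 and Npc1. The letters TCACNCCAC, a common form of the sterol regulatory element, stood on either strand in 1 of 23 windows, that of Hmgcs1, and in 1.436% of the 27025 genes with a window. The letters CCAAT, the site of the SREBP partner NF-Y, stood on either strand in 21 of 23 (91.3%) against 41.06% of genes, and GGGCGG, a site of Sp1, in 21 of 23 (91.3%) against 38.2%. The 27025 genes were not limited to those expressed in these tumors, as the 29 were, so the shares compare unlike sets. Expressed genes were not counted apart. Matches of different patterns can share bases where they meet. A match is a description of the letters and not a bound site. The 150 bases before the start are shown for Hmgcs1 as the only holder of the sterol element (chr13:119690201-119690350, plus strand), for Idi1 as the gene with the widest range after Acat2 (chr13:8885456-8885605, plus strand), for Msmo1 (chr8:64733579-64733728, minus strand) and Cyp51 (chr5:4104698-4104847, minus strand) of the first correlated set and for Lss (chr10:76531455-76531604, plus strand) and Nsdhl (chrX:72918371-72918520, plus strand) of the other set. Capitals mark the sterol element and CCAAT, which reads ATTGG where it lies on the other strand.
Hmgcs1: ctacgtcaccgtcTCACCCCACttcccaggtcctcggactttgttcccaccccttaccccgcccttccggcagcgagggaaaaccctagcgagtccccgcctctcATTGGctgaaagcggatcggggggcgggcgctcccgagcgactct
Idi1: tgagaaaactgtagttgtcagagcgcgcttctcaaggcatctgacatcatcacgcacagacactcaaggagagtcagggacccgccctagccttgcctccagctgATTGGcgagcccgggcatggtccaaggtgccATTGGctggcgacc
Msmo1: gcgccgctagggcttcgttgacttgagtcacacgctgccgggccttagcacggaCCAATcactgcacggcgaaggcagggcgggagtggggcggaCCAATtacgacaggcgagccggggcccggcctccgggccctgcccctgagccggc
Cyp51: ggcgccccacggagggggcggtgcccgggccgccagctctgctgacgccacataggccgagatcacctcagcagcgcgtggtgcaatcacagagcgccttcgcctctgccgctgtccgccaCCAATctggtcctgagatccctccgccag
Lss: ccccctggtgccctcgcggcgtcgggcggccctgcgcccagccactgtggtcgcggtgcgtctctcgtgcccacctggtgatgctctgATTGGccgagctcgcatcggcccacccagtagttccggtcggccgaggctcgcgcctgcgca
Nsdhl: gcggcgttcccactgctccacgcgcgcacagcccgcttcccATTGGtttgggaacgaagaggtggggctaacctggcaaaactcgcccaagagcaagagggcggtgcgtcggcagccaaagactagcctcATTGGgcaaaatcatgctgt
All 6 windows hold at least 1 CCAAT, in both correlated sets.

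Beyond the 29, 45 further genes of the pathway in 5 lists were read, covering other sterol synthesis, SREBP processing and sterol sensing, lipoprotein uptake and lysosomal release, sterol movement between membranes and the isoprenoid branch. None changed after adjustment in any comparison, and at an unadjusted p under 0.05 between 0 and 2 of the 45 passed in each, beside 1.15% to 5.86% of all genes, so these counts lie near the background. Apoe, the apolipoprotein that carries cholesterol out of macrophages and binds lipoprotein receptors, read 103 and 143 CPM in pMCS, 123 and 94.7 in IL-18, 739 and 107 in IL-27, 292 and 295 in 27→18, 584 and 347 in 27pepL and 475 and 281 in 27pepL→18. It was higher than both pMCS libraries in all libraries of 27→18, 27pepL and 27pepL→18, and in IL-27 in replicate 1 alone. Apoe had an unadjusted p under 0.05 in IL-27 (log2 fold change 1.79, SE 0.72, unadjusted p of 0.034, adjusted p = 1), in 27pepL (log2 fold change 1.92, SE 0.72, unadjusted p of 0.0252, adjusted p = 1) and in 27pepL→18 (log2 fold change 1.62, SE 0.72, unadjusted p of 0.0488, adjusted p = 1).

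Lrp8, a receptor for apolipoprotein E, read 34.1 and 36.7 CPM in pMCS, 12.1 and 20.3 in IL-18, 29.2 and 23.4 in IL-27, 14.2 and 32.1 in 27→18, 17.1 and 20.9 in 27pepL and 13.1 and 15.3 in 27pepL→18. Every treated library was below both pMCS libraries, with an unadjusted p under 0.05 in IL-18 (log2 fold change -1.12, SE 0.42, unadjusted p of 0.0245, adjusted p = 1), in 27pepL→18 (log2 fold change -1.31, SE 0.42, unadjusted p of 0.0118, adjusted p = 0.985) and in the IL-18 groups against those without it (log2 fold change -0.58). All treated groups were set against the same pMCS libraries, and the share of all genes separated in every group was not counted. Mylip, a ubiquitin ligase that removes lipoprotein receptors, was at 28.8 CPM in IL-27 replicate 1 and at 4.06 to 7.26 CPM elsewhere, and against IL-27 it was at -1.71 in 27pepL (unadjusted p of 0.0360, adjusted p = 0.819) and -1.61 in 27→18 (unadjusted p of 0.0445, adjusted p = 1). Erlin1, a partner in sterol-driven protein degradation, read 136 and 127 CPM in 27pepL against 86.5 and 95.4 in IL-27 (log2 fold change 0.53, unadjusted p of 0.0455, adjusted p = 0.819).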

How the data were processed

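Each of the 12 libraries is recorded as a pool of 4 to 6 tumors, with 2 libraries per group. The methods also give 4 to 6 tumors per group, so the 2 libraries of a group may draw on the same tumors. The methods describe stranded poly(A) TruSeq libraries read in pairs on a NovaSeq instrument, while the labels call the RNA total RNA. The authors trimmed reads with Cutadapt, checked them with FastQC 0.11.3, mapped them with HISAT2 and quantified them with StringTie, and they deposited a matrix of unscaled gene counts. Not given in the sources used here are the genome build, the annotation release, the use of strand and how StringTie estimates became counts. All 55450 identifiers were matched to GENCODE M21 for names and lengths.

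Counts were fitted in R 4.3.3 with edgeR 4.0.16, after filterByExpr by group left 20417 genes, with TMM scaling, quasi-likelihood dispersion and 1 term per group over all 12 libraries (6 residual and 3.43 prior degrees of freedom). P-values are two-sided and were adjusted by Benjamini-Hochberg over all tested genes within each comparison. Intervals use the t distribution at those combined degrees of freedom. The procedure was tested on simulated counts. Every gene with an unadjusted p under 0.05 and the 2 with the highest level per length in each role group were to be given per library, further lists were named only at that p, and 1 gene is not reported here. The members and lists were chosen with earlier results of these data known. Alternatives were DESeq2 1.42.0, RLE scaling, no filter, each library left out, fits to the compared groups only, the replicate number as a block, covariates for muscle and adipocyte genes and, added after the data were seen, a length trend covariate. Levels were also scaled to raw totals, and no fit on raw totals is reported here.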

Additional observations from a re-analysis of the deposited data

How the results depend on the processing

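At an adjusted p of 0.05, RLE scaling, DESeq2, the compared groups alone, both kinds of covariate and the replicate block called 0 of the 29 genes in every comparison. Without the filter on low counts, edgeR called 1 in 27pepL against pMCS (Idi1), 1 in 27pepL→18 against pMCS (Acat2) and 1 in the difference of the IL-18 effect after 27pepL and after pMCS (Idi1), and the cause was not tested. At an unadjusted p under 0.05, where the fit reported gave 0 throughout, no filter gave 2 genes in IL-18, 1 in 27→18, 1 in 27pepL and 2 in 27pepL→18 against pMCS, 1 in 27pepL against IL-27, 2 in 27pepL→18 against 27pepL and 1 in the IL-18 difference after 27pepL. The compared groups alone gave 1 in IL-18 (Lss), the length trend covariate 1 in IL-27 (Npc2) and 1 in 27pepL against IL-27 (Lss), the muscle and adipocyte covariates 1 in the IL-18 difference after IL-27 (Lss), and DESeq2 1 in 27pepL→18 (Acat2) and 1 in the IL-18 difference after 27pepL (Idi1).

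With 1 library left out, the counts called after adjustment ran from 0 to 2 in 27pepL→18 against pMCS and from 0 to 1 in 27pepL→18 against 27pepL, in both cases because 27pepL→18 replicate 1 stood alone for its group, with its spread taken from the other groups. At an unadjusted p under 0.05 they ran from 0 to 1 in IL-18, 0 to 5 in IL-27, 0 to 1 in 27→18, 0 to 2 in 27pepL and 0 to 2 in 27pepL→18 against pMCS, from 0 to 4 in 27pepL against IL-27, 0 to 3 in 27→18 against IL-27, 0 to 3 in 27pepL→18 against 27pepL and 0 to 2 in the IL-18 groups against the rest, and from 0 to 2 and 0 to 3 in the IL-18 differences after IL-27 and after 27pepL. The highest counts came without IL-27 replicate 2, 27pepL→18 replicate 2, 27pepL replicate 2 or pMCS replicate 2. The log2 fold change of Sqle in 27→18 against IL-27 ran from -0.0045 to 1.11, while the gene with the smallest p in each of the other 10 comparisons kept its sign in every alternative run.

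Same-numbered libraries deviated together in some pairs of groups and in opposite ways in others. The correlations over the 15 pairs of groups ran from -0.376 (27→18 with 27pepL) to 0.481 (27pepL with 27pepL→18), 6 of them over 0.1. With no common sign over the groups, the numbers were not taken as pairs. With the replicate block, 1 gene reached an unadjusted p under 0.05, Idi1 in the IL-18 difference after 27pepL (-2.79, adjusted p = 1). Against pMCS the 95% interval lay within 2-fold for only 11 to 15 of 29 genes, so at 2 libraries per group a 2-fold change was not excluded in the others.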
